A study of Mus musculus with 4 samples.

Results

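The mitosis and cytokinesis genes are 48 genes, named from a fixed list, whose products enter, organise and complete cell division. They were followed in leaflets of the semilunar valves, the aortic and the pulmonary, taken from newborn mice. Each gene was read from the brightest of the array's probe sets that carry its symbol alone, by mean signal over the 4 arrays. This gave 47 of the 48 genes, among 18193 genes with such a probe set. Ccnb1, which encodes cyclin B1, had no such match and was not analysed here. The tested leaflets came from Cxcr7-/- neonates, which lack the CXCL12-binding receptor Cxcr7 (now Ackr3), and were set against leaflets of control neonates, described by the labels as wildtype littermates. There were 2 pools per genotype, 1 array each, and each pool combined the leaflets of 3 neonates, 4 to 6 leaflets per mutant and 6 per control. No treatment, Cre driver, strain or sex is named in the labels used here, and pooling hides differences between the neonates of a pool.

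A dividing cell builds its mitotic machinery late. Cyclin-dependent kinase 1 (CDK1) with cyclins A and B drives entry into mitosis, and condensins compact the chromosomes. Kinetochores attach them to a microtubule spindle organised by kinesin motors, and the spindle assembly checkpoint holds anaphase until every chromosome is attached. The anaphase-promoting complex then destroys cyclin B and securin, and the central spindle and contractile ring split the cell. Most of these genes are transcribed together in G2 and M phase, so their transcripts in a tissue are widely used as a measure of how many cells are dividing. In late fetal and newborn valves, interstitial and endothelial cells still divide, and division falls as the leaflets mature.

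Signals are MAS5 intensity values on a linear scale, and log2 fold changes are Cxcr7-/- minus control on log2(signal + 22), each with the standard error of the limma model (n = 2 and 2 pools). Cxcr7 itself read 28.3 and 328 in Cxcr7-/- leaflets, against 4936 and 5698 in control leaflets. All 17 listed valve interstitial and fibroblast markers were above the filter on dim probe sets. For Actb, the 3′ control probe set read 15.5 and 11.7 times the 5′ one in Cxcr7-/- pools and 20.2 and 19.1 times in control pools, so this measure of RNA and amplification quality moved with genotype. The same ratio for Gapdh was 12.6 and 8.20 in Cxcr7-/- pools and 12.7 and 24.2 in control pools. By that measure replicate 1 of the 2 genotypes was nearly equal and control replicate 2 stood highest. The part of RNA quality in the results below was not tested. With bulk tissue, a difference in the number of dividing cells and one in mitotic RNA per cell cannot be told apart. P-values measure the spread between pools, which the series' design text calls biological replicates.

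Most transcripts of the mitotic machinery read higher in Cxcr7-/- leaflets, although none passed the adjusted test. Of the 47 measured genes, 40 had a positive log2 fold change, against 48.4% of all genes and 50.4% of those above the filter. The median was 0.70, against -0.02 over all genes. In 34 genes both Cxcr7-/- pools read higher than both control pools, a separation seen in 18.3% of all genes and 21.1% of those above the filter. The reverse separation held for 2 genes, Foxm1 and Pttg1, and was seen in 19% of all genes, and the pools overlapped for the other 11. For the 34 separated genes the ratio of mean signals ran from 1.42-fold for Ndc80 to 2.74-fold for Kif20a. The 2 most separated, Kif20a and Anln, were at least 2-fold higher in all 4 comparisons of a Cxcr7-/- with a control pool, as were 1.81% of all genes. A log2 fold change of 1 or more was found in 8 members, against 2.42% of all genes and 1.55% of those above the filter.

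No member passed the limma test after Benjamini-Hochberg adjustment over the 22518 probe sets tested, and neither did any other probe set (0%, smallest adjusted p = 0.400). Adjusted p for the members ran from 0.406 to 0.986. At an unadjusted p under 0.05, 24 of the 46 members above the filter were higher and 0 were lower, where the shares over all genes tested were 3.95% higher and 4.09% lower. With the fit over all probe sets, dim ones included, 27 of 47 were higher, against 3.46% of all genes. The count with an unadjusted p under 0.05 was 12 without Cxcr7-/- replicate 1 and 11 without Cxcr7-/- replicate 2, where the share over all genes was 1.07% and 1.45%. Each of these fits leaves 1 array in an arm, which is assumed to vary like the arm that keeps 2. Without control replicate 1, the median log2 fold change was 0.68 for the members and 0.02 for all genes. The control pool left in that fit, replicate 2, read lowest of the 4 pools in 20 of the 47 members.

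Each gene was also set against its own mean over the 4 pools. The median deviation of the 47 genes was 0.38 and 0.35 log2 in Cxcr7-/- pools, against -0.32 in each control pool. Single genes differed within a genotype too: the median difference regardless of sign was 0.21 between the Cxcr7-/- pools and 0.35 between the control pools. These differences went both ways, so their signed medians were 0.10 for Cxcr7-/- replicate 1 over replicate 2 and 0.02 for control replicate 1 over replicate 2. The 4 pairings of a mutant with a control pool gave signed medians of 0.65 to 0.79. The highest signal of a gene was in a Cxcr7-/- pool for 29 genes (replicate 1) and 14 genes (replicate 2), and in a control pool for 4.

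**Figure D1:**
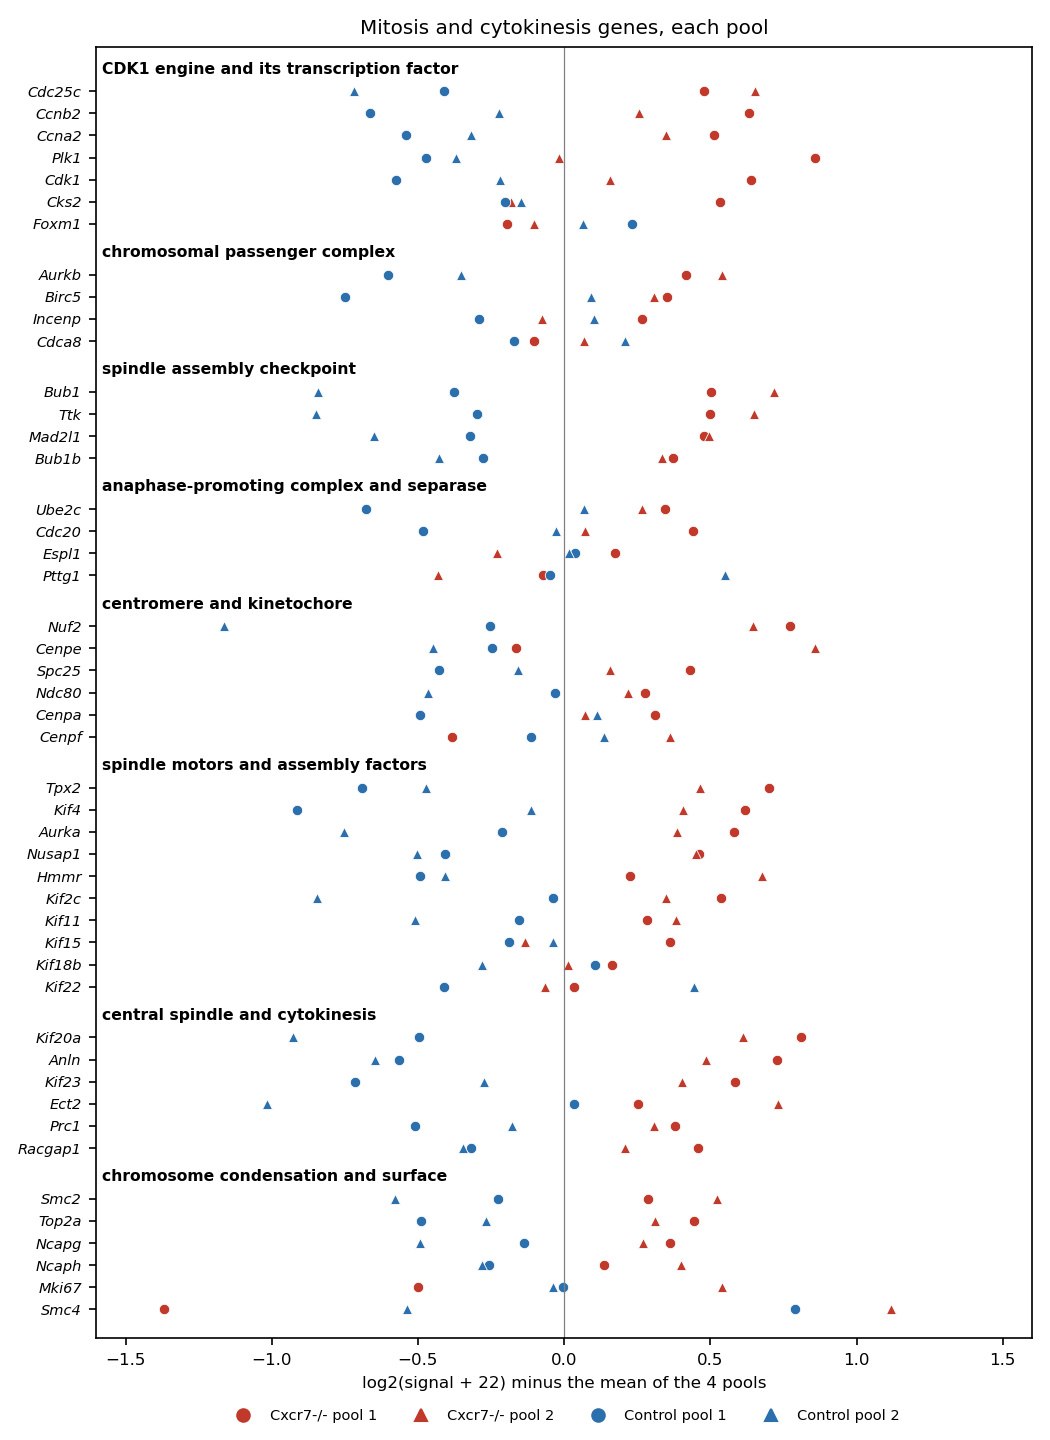
Each row is 1 of the 47 measured genes, grouped by role, and each symbol is 1 pool, placed by log2(signal + 22) minus the mean of the 4 pools (Cxcr7-/- red, control blue). In 34 rows both red symbols lie right of both blue ones, while Foxm1 and Pttg1 show the reverse and Smc4 spreads the widest.

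Many G2 and M phase genes carry a cell cycle genes homology region (CHR) near their start site, bound by the MuvB core of the DREAM and MYB-MuvB complexes. Many also carry CCAAT boxes, bound by the factor NF-Y. RefSeq promoter windows (GRCm38.p6), 250 bases before to 50 after each start, were found for 40 of the 48 genes, in 42 windows. A CHR was counted wherever a window held TTTGAA on either strand, TTCAAA when read along the gene, or TTTAAA. It was present in 35 of the 42 windows, 83.3%, against 27.6% of all 32851 windows. Within the stretch from 60 bases before the start to the end of the window it was present in 76.2%, against 9.12%. That shorter stretch was chosen after the data were seen. In the 32 member windows with a CHR there, the one nearest the start was TTTGAA in 19, TTCAAA in 8 and TTTAAA in 5. In the 2995 such windows of all genes the counts were 937, 802 and 1256. CCAAT on either strand was found in 76.2% of member windows and 37.4% of all windows, and both motifs in 71.4% and 10.7%. In the 28 windows with a CCAAT box before a CHR near the start, the first bases of the 2 motifs lay 33 bases apart in the median (quartiles 25.75 and 38), against 83 in the 1060 such windows of all genes.

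The promoters printed here, from 120 bases before to 20 bases after the start, belong to the 4 members with the smallest unadjusted p whose window holds both motifs, and show how the elements lie together. Capitals mark every CHR and every CCAAT box on either strand, read 5′ to 3′ along the gene. A CCAAT box on the opposite strand reads ATTGG. The windows are chr9:83834569-83834708 (plus strand) for Ttk, chr9:61946780-61946919 (minus) for Kif23, chr11:40733418-40733557 (minus) for Hmmr and chr11:99024170-99024309 (minus) for Top2a.
Ttk: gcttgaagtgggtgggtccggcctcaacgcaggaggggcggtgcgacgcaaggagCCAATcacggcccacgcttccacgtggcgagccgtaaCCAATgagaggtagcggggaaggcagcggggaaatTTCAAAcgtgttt
Kif23: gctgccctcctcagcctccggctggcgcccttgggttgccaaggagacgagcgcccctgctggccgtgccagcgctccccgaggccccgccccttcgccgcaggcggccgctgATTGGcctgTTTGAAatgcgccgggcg
Hmmr: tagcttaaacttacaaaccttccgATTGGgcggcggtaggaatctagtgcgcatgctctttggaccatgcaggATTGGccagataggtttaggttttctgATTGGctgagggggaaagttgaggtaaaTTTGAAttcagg
Top2a: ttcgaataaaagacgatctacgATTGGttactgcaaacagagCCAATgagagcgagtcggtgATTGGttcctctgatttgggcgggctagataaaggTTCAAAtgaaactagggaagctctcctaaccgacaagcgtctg
In Ttk, Kif23 and Hmmr the CHR begins at positions 8, 3 and 9, counting the start as 1, and in Top2a it begins 23 bases before the start. A CCAAT box lies upstream of the CHR in each, 3 of them in Hmmr and in Top2a within the stretch shown. Carrying both motifs did not go with a larger genotype difference: the median log2 fold change was 0.69 in the 27 measured members with both motifs and 0.77 in the 12 with a window that lacked 1 or both. A match is a run of letters and says nothing of binding in these leaflets.

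**Figure D2:**
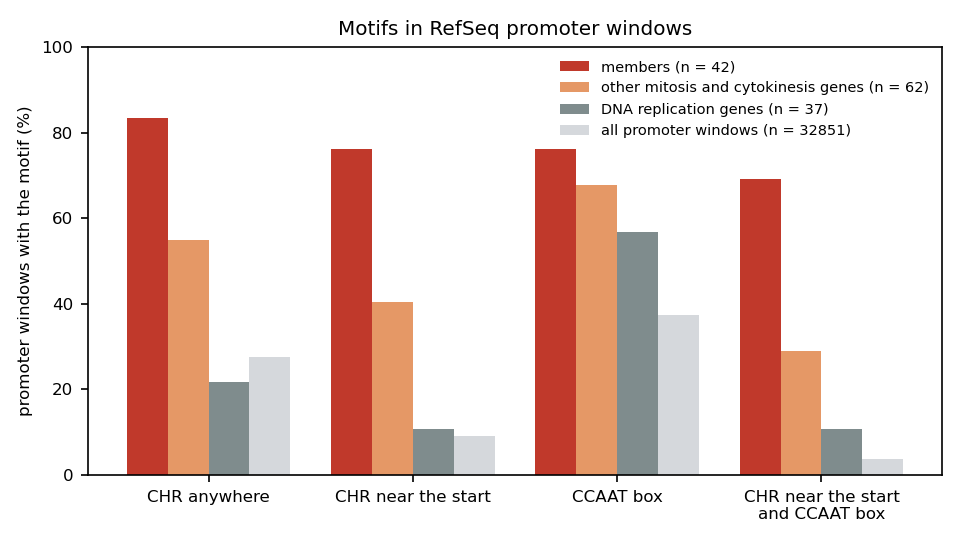
Bars give the percentage of RefSeq promoter windows that hold each motif, for the mitosis and cytokinesis genes (42 windows), other mitosis and cytokinesis genes (62), DNA replication genes (37) and all genes (32851). A CHR near the start stood in 76.2% of the member windows, 40.3% of the other mitosis windows, 10.8% of the replication windows and 9.12% of all windows.

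Among the genes of the CDK1 engine, 6 of 7 measured were positive, against 48.4% of all genes. Of the 7, 5 separated the genotypes upward, against 18.3% of all genes, and Foxm1 separated downward. Cdk1, the kinase that drives mitotic entry, read 4137 and 2957 in Cxcr7-/- pools and 1772 and 2274 in control pools, a log2 fold change of 0.79 ± 0.28. Both mutant pools were above both controls, with replicate 1 the higher. Ccna2, which encodes cyclin A2 of S and G2 phase, read 3801 and 3391 against 1822 and 2129.8 in controls (0.86 ± 0.24). Ccnb2, which encodes cyclin B2, read 2909 and 2238 against 1172 and 1599 in controls (0.89 ± 0.28). For these cyclins too the genotypes did not overlap. The largest difference of the group belonged to Cdc25c, the phosphatase that activates CDK1 at mitotic entry, with 464 and 527 in Cxcr7-/- pools and 240.1 and 189.8 in control pools (1.13 ± 0.32). Plk1, the polo-like kinase of mitotic entry and spindle formation, was at 0.84 ± 0.37 and carried most of its difference in 1 mutant pool, with 794 and 423 against 303 and 327 in controls. Cks2, a small CDK-binding subunit, overlapped between genotypes at 0.35 ± 0.28.

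Foxm1, the transcription factor that activates many G2 and M phase genes together with the MYB-MuvB complex, did not follow them. Its brightest probe set read 131 and 141 in Cxcr7-/- pools and 184 and 161 in control pools, a log2 fold change of -0.30 ± 0.36. At these signals, the lowest of any member above the filter, the standard error exceeded the difference. Both other Foxm1 probe sets above the filter were positive, at 0.29 each, so its direction was not settled by this array.

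All 4 members with a role in the spindle assembly checkpoint separated the genotypes upward, a separation seen in 18.3% of all genes. Bub3, a checkpoint gene of the other mitosis list, overlapped at 0.19 ± 0.22. Bub1, the kinase that recruits checkpoint proteins to unattached kinetochores, read 1263 and 1472 in Cxcr7-/- pools and 676 and 484 in control pools (1.22 ± 0.29). Ttk, the MPS1 kinase at the head of the checkpoint, read 709 and 788 against 398 and 265 in controls (1.15 ± 0.32). Mad2l1, which encodes the checkpoint effector MAD2, read 4822 and 4880.1 against 2764 and 2192 in controls (0.97 ± 0.24). In these 3 genes the mutant pools lay close together and control replicate 2 read lowest. Bub1b, which encodes the checkpoint protein BUBR1, was at 0.70 ± 0.24, with 2367 and 2305 against 1504 and 1351 in controls.

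The genes that carry out anaphase onset were the group with the smallest median, 0.23. Of its 4 members 2 were positive, near the 48.4% of all genes. Cdc20, the activator of the anaphase-promoting complex that the checkpoint restrains, read 10105 and 7824 in Cxcr7-/- pools and 5326 and 7299 in control pools (0.51 ± 0.26). Ube2c, the ubiquitin-conjugating enzyme of that complex, was at 0.61 ± 0.34, with 750.2 and 710.3 against 358 and 616 in controls. Both separated the genotypes only narrowly, by 1.07-fold and 1.15-fold between the nearest pools. Espl1, which encodes the protease separase that cuts cohesin, overlapped at -0.05 ± 0.32.

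Pttg1, which encodes securin, the inhibitor of separase, ran the other way on every probe set. Its brightest read 10794 and 8426 in Cxcr7-/- pools and 10994 and 16648 in control pools (-0.50 ± 0.27). The genotypes were barely apart, since the nearest pools differed by a ratio of 0.982 and control replicate 2 stood above the rest. The other probe sets were at -0.89 and -0.24, so Pttg1 had the lowest log2 fold change of the 47 genes and no probe set in the direction of the rest.

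In the chromosomal passenger complex, which corrects faulty attachments and later sets up cytokinesis, 3 of 4 genes were positive, against 48.4% of all genes. Aurkb, the Aurora B kinase at its core, read 679 and 741 in Cxcr7-/- pools and 324 and 389 in control pools (0.95 ± 0.29). Birc5, which encodes survivin, was at 0.66 ± 0.36, with 602 and 583 against 269 and 499.6 in controls. The scaffold gene Incenp (0.19 ± 0.25) and Cdca8, which encodes borealin (-0.04 ± 0.25), overlapped between genotypes on their brightest probe sets.

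Centromere and kinetochore genes were positive in 5 of 6 cases, against 48.4% of all genes. Nuf2, a subunit of the NDC80 complex that grips spindle microtubules, read 2492 and 2279.6 in Cxcr7-/- pools and 1210.5 and 635 in control pools, a log2 fold change of 1.42 ± 0.34. Spc25, another subunit of that complex, was at 0.59 ± 0.25, with 3247 and 2679 against 1779 and 2153 in controls, and Ndc80 itself at 0.50 ± 0.31. Spc24, the remaining subunit of the complex and not a member, overlapped at 0.22 ± 0.39, with 318 and 385 in Cxcr7-/- pools and 212 and 414 in control pools. Cenpe, a kinetochore kinesin, read 509 and 1056 against 478 and 414 in controls (0.70 ± 0.38), so its difference rested on Cxcr7-/- replicate 2. The histone variant gene Cenpa (0.38 ± 0.29) and the kinetochore gene Cenpf (-0.02 ± 0.32) overlapped.

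Among spindle motors and assembly factors 9 of 10 were positive and 7 separated the genotypes upward, against 48.4% and 18.3% of all genes. Tpx2, which activates Aurora A and nucleates spindle microtubules, read 1411 and 1194 in Cxcr7-/- pools and 524 and 615 in control pools (1.16 ± 0.28). Nusap1, a microtubule bundling protein, read 2229 and 2211 against 1211 and 1131 in controls (0.91 ± 0.25). Hmmr, a spindle and hyaluronan-binding protein, read 1729 and 2372 against 1041 and 1106 in controls (0.90 ± 0.27). Aurka, the Aurora A kinase, was at 0.97 ± 0.32, the chromokinesin Kif4 at 1.03 ± 0.36, the microtubule depolymerase Kif2c at 0.88 ± 0.33 and Kif11, the motor that pushes spindle poles apart, at 0.67 ± 0.29. Kif18b overlapped at 0.18 ± 0.33. Kif15 was the 1 member below the filter, with 16.4 and 5.26 in Cxcr7-/- pools and 4.24 and 7.14 in control pools, under the pseudocount of 22 in every pool, so its probe set carried no usable level.

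The central spindle and cytokinesis genes were the most uniform group together with the checkpoint. All 6 separated the genotypes upward, against 18.3% of all genes. All 6 had an unadjusted p under 0.05 in limma, where 3.95% of all genes tested were higher. The median log2 fold change was 0.99. Of the 62 other mitosis and cytokinesis genes, 39 separated upward, while Cit (-0.19 ± 0.33) and Kif20b (0.41 ± 0.58) were among those that overlapped. Kif20a, the kinesin that brings the passenger complex to the central spindle, read 1303 and 1134 in Cxcr7-/- pools and 514 and 376 in control pools (1.42 ± 0.30). Anln, which encodes the contractile ring scaffold anillin, read 4527 and 3819 against 1837 and 1731 in controls (1.21 ± 0.24). No other member reached a 2-fold gap between the nearest pools.

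Kif23, the kinesin of centralspindlin, read 1439 and 1267 in Cxcr7-/- pools and 571 and 782 in control pools (0.99 ± 0.29). Its partner Racgap1 was at 0.66 ± 0.27, and Prc1, which bundles the central spindle, at 0.69 ± 0.25. Ect2, an exchange factor needed to form the contractile ring, read 1281 and 1792 against 1096 and 518 in controls (0.98 ± 0.39). Control replicate 2 set much of that difference, since the other control pool lay within 1.17-fold of the nearest mutant pool.

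Chromosome condensation genes were more divided. Top2a, the topoisomerase that untangles sister chromatids, read 5746 and 5232 in Cxcr7-/- pools and 2999 and 3497 in control pools. Its log2 fold change was 0.76 ± 0.23, the smallest standard error of the members. Another Top2a probe set above the filter overlapped at -0.02 ± 0.31, with 497 and 384 against 433 and 454 in controls. Smc2, the core subunit of both condensins, read 3966 and 4677 against 2773 and 2167 in controls (0.81 ± 0.25). The condensin I subunits Ncaph (0.54 ± 0.24) and Ncapg (0.63 ± 0.30) also separated the genotypes. Smc4, the partner of Smc2, read 1410.4 and 8009 in Cxcr7-/- pools and 6369 and 2527 in control pools (-0.25 ± 0.75). Pools of the same genotype differed more than the genotypes did. A dimmer Smc4 probe set split the pools the same way, with 219 and 1733 against 1254 and 108 in controls. The remaining Smc4 probe set split only the mutant pools that way, with 2556 and 6073 against 4386 and 4856 in controls (-0.23 ± 0.38).

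Mki67, the most used marker of proliferating cells, overlapped between the genotypes. It read 3880.0 and 8009 in Cxcr7-/- pools and 5486 and 5349.5 in control pools, a log2 fold change of 0.04 ± 0.34. The lowest and the highest reading were both in mutant pools. Its log2 fold change was 0.56 without Cxcr7-/- replicate 1 and -0.48 without Cxcr7-/- replicate 2. The gene had 1 probe set with its symbol alone, so no other probes were there to compare.

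The brightest probe set was not always typical of its gene. The 32 members with more than 1 probe set had 59 others. The members were chosen with earlier results of these data known, so these probe sets may not be independent of that choice. Of the 59, 49 were positive with a median of 0.52. Among all probe sets of the array that were not the brightest of their gene, 49.4% were positive. Both Cxcr7-/- pools read above both control pools in 26 of the 59, against 18.9%. These probes read the same RNA on the same arrays, so they check the probes and not the animals. In 21 of the 32 genes every probe set was positive. Of the 41 others above the filter, 34 were positive and 7 negative. Among the 7 were sets of Cenpa (-0.37 ± 0.41), Hmmr (-0.19 ± 0.42) and Top2a (-0.02 ± 0.31), whose brightest sets were positive.

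Kif22, a chromokinesin that moves chromosome arms, changed most. Its brightest probe set overlapped, with 2588 and 2411 in Cxcr7-/- pools and 1893 and 3440.0 in control pools (-0.03 ± 0.32). Both others separated the genotypes, the first with 291 and 282 against 93.7 and 88.6 in controls (a log2 fold change of 1.45) and the second with 553 and 534 against 238 and 181 in controls (1.30). Incenp was at 0.96 on the probe set with 619 and 461 against 205 and 338 in controls and at -0.31 on another above the filter, with 141 and 109 against 92.6 and 266 in controls. Its 2 dim probe sets were at 0.13 and 0.0027. Cdca8 was at 0.63 and 0.32 on its other probe sets. The brightest probe sets of Kif22 and Incenp have the suffix _x_at and that of Cdca8 has _s_at, which the array maker gives to sets with probes shared between transcripts. In all, 7 members were read from an _x_at set and 4 from an _s_at set, and their signal may hold other transcripts. With the brightest set free of both suffixes in their place, where there was 1, the count of positive members was 42, the count separated upward 37 and the median 0.81.

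**Figure D3:**
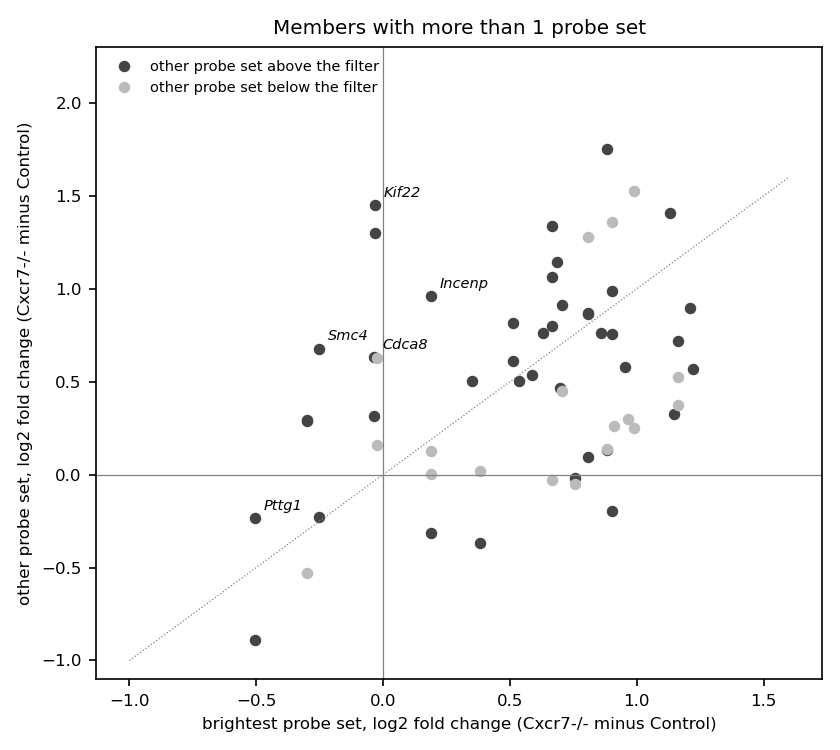
Each point is 1 of the 59 other probe sets of the members, with its log2 fold change (Cxcr7-/- minus control) against that of the gene's brightest probe set. The dotted line marks equal values, and 49 points lie above 0, among them both of Kif22 at 1.45 and 1.30.

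Other genes of the pathway, from lists that hold no member, went the same way to different degrees. Of 62 other mitosis and cytokinesis genes, 58 were positive, 39 separated the genotypes upward and 15 of the 59 above the filter had an unadjusted p under 0.05, against 48.4%, 18.3% and 3.95% of all genes. Their median log2 fold change was 0.57. The smallest p belonged to Ckap2, a spindle-associated protein, at 1.19 ± 0.30, to the mitotic kinase gene Pbk at 1.13 ± 0.28 and to Arhgap11a at 0.91 ± 0.24. Among 36 DNA replication genes 29 were positive and 19 separated upward (median 0.30), against the same 48.4% and 18.3%. Pcna, the replication clamp, was at 0.83 ± 0.22, the ribonucleotide reductase gene Rrm1 at 0.90 ± 0.25 and the helicase subunit Mcm4 at 0.66 ± 0.24. A test of the difference between these lists was not made.

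Lists of other cell cycle machinery varied. Anaphase-promoting complex subunits had a median of 0.12, with 3 of 16 separated upward, 18.8% against 18.3% of all genes. Anapc10 was at 0.60 ± 0.28, Cdc23 at 0.63 ± 0.37 and Cdc16 at 0.30 ± 0.23. Cohesin genes had a median of 0.18, with 5 of 12 separated upward, 41.7% against 18.3% of all genes, and values on both sides, Pds5a at -0.63 ± 0.30, Rad21 at 0.62 ± 0.30 and Smc3 at 0.41 ± 0.31. G1 cyclins, kinases and CDK inhibitors had a median of 0.08, with 6 of 26 separated upward and 5 downward, near the 18.3% and 19% of all genes. Genes of the DREAM and MuvB complexes, 4 of which are also in the G1 list, were positive in 8 of 12 cases (median 0.48), and 6 separated upward, 50% against 18.3% of all genes. Among them Rbl1, which encodes the pocket protein p107, was at 0.96 ± 0.27, the MuvB subunit gene Lin54 at 0.98 ± 0.31 and Mybl2, which encodes B-MYB, at 0.72 ± 0.42.

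**Figure D4:**
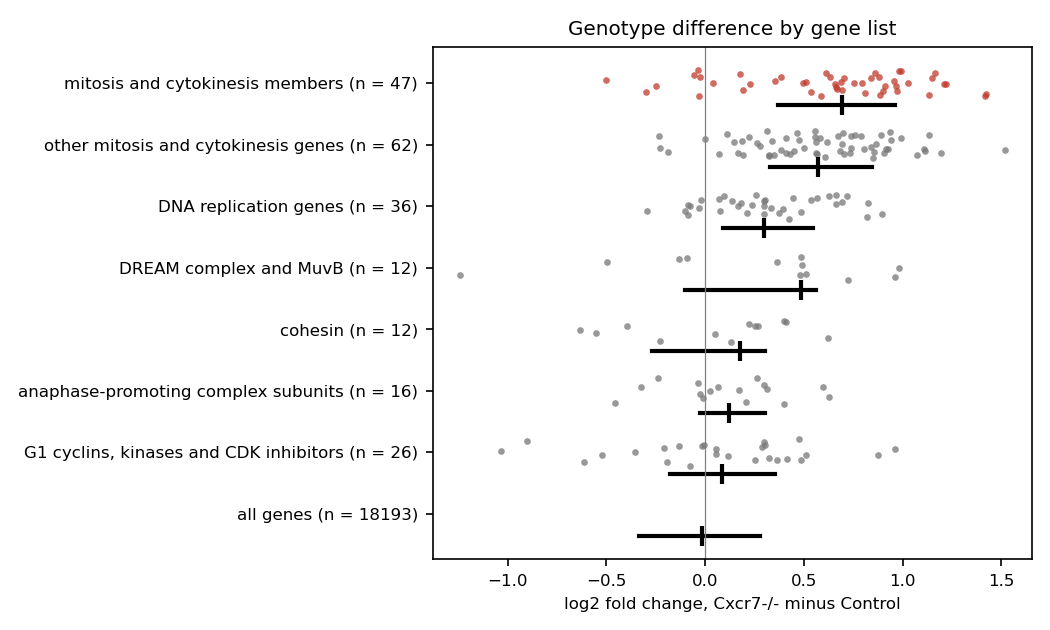
Points are genes by log2 fold change (Cxcr7-/- minus control), thick lines span the quartiles and ticks mark the medians, with all 18193 genes shown by quartiles alone. Medians were 0.70 for the mitosis and cytokinesis members, 0.57 for other mitosis genes, 0.30 for replication genes and -0.02 for all genes.

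Markers of other cell types moved with genotype as well. Of 27 macrophage markers, 23 were positive and 18 separated upward, against 48.4% and 18.3% of all genes. Mertk was the 1 that separated downward, at -0.44 ± 0.30, and 8 overlapped, among them Laptm5 at 0.07 ± 0.24. The median of the list was 0.63. Its summed signal was 43014 and 36858 in Cxcr7-/- pools and 28635 and 22914 in control pools. The macrophage mannose receptor gene Mrc1 was at 1.75 ± 0.28, F13a1 at 1.43 ± 0.32 and Cd68 at 1.55 ± 0.38. All 26 cardiomyocyte markers were negative and 18 separated downward, where 48.4% of all genes were positive and 19% separated downward. Their median was -0.99. Their summed signal was 121178 and 175063 in Cxcr7-/- pools and 212522 and 315354 in control pools, and the log2 fold changes included Cox6a2 at -1.82 ± 0.43, Mb at -1.67 ± 0.44 and Myh6 at -1.54 ± 0.34. Whether the difference in mitotic genes lies in macrophages, or follows a smaller share of muscle, was not tested.

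The spacing of the pools differed between these lists. For control replicate 1 over control replicate 2 the median difference was -0.85 in cardiomyocyte markers and 0.02 in the mitosis and cytokinesis genes. The median deviation of macrophage markers was 0.47 and 0.15 in Cxcr7-/- pools, against -0.29 and -0.57 in control pools. In the mitotic genes the medians of the 2 pools of each genotype were nearly tied, at 0.38 and 0.35 and at -0.32 in both controls. Differences of opposite sign cancel in such medians. Regardless of sign, the median difference between control pools was 0.35 in the mitotic genes and 0.43 in macrophage markers. Between Cxcr7-/- pools it was 0.21 and 0.39. What sets this spacing was not tested. Cardiomyocyte markers were at -0.85 and -0.13 in Cxcr7-/- pools and 0.09 and 0.91 in control pools. Beside the counts that follow, 48.4% of all genes were positive. Smooth muscle markers were negative in 10 of 10 genes (median -0.78) and endothelial markers in 13 of 18 (median -0.23). Of interstitial and fibroblast markers 10 of 17 were positive (median 0.10), of neuron and Schwann cell markers 6 of 9 (0.40), and of lung epithelium markers 2 of 10 (-0.75). Erythroid markers were positive in 2 of 8 genes, with none separated upward, and of 8 lymphocyte markers 1 was above the filter.

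**Figure D5:**
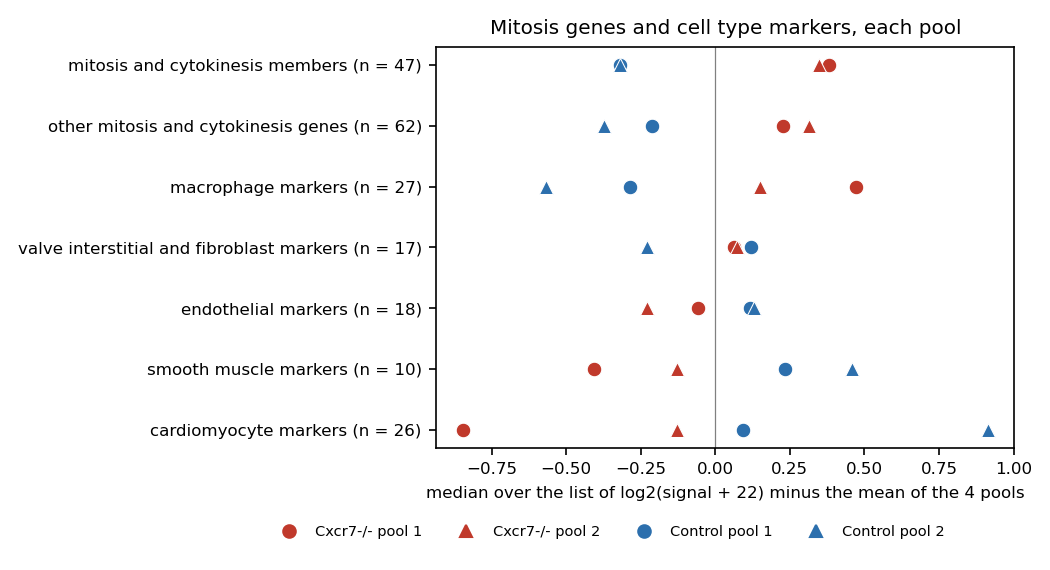
Symbols give, for each pool, the median over a gene list of log2(signal + 22) minus the mean of the 4 pools (Cxcr7-/- red, control blue). The mitosis and cytokinesis genes lie at 0.38 and 0.35 in Cxcr7-/- pools and at -0.32 in both control pools, while cardiomyocyte markers spread within each genotype.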

How the data were processed

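Leaflet RNA (50 ng per pool, 2 rounds of amplification, per the labels' protocols) was hybridised to 4 arrays. The authors deposited 1 intensity per probe set and array on a linear scale. They used Affymetrix Expression Console and MAS5, per the submitters' processing notes, with versions and genome build not given in the sources used here. The trimmed mean of the middle 96% of probe sets was 500.003 on every array, so each array had been scaled as a whole. The number of arrays limits the precision.

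Of 45101 probe sets, 64 controls were set aside. Values were taken as log2(signal + 22), where 22 is the 25th percentile of the remaining values. Probe sets with a mean above the median of all (22518) were tested with limma 3.58.1 in R 4.3.3 (lmFit, then eBayes with trend, as two-sided tests). P-values were adjusted by Benjamini-Hochberg over all of them, at a threshold of 0.05. The procedure was tested on simulated data. Counts and medians of a list cover every measured gene, above the filter or not, and no test of a list was made. No exact permutation test was used, because with 2 against 2 arrays the smallest p is 0.333. Genes came from the array's annotation (34945 probe sets with 1 symbol, 932 with several, 9160 with none), without alignment, so probe positions are not given. Promoters were read from a RefSeq table (GRCm38.p6).

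Genes named were Cxcr7, the 3 members of each of 8 role groups with the smallest unadjusted p, all negative members, the 2 dimmest, Mki67, Top2a and Cdk1, and up to 3 genes of each other pathway list by p. Others were named after their values were seen. The members and lists were chosen with earlier results of these data known. Alternatives covered the pseudocount, filter, normalization, variance model, replicate block, probe set and each array left out.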

Additional observations from a re-analysis of the deposited data

How the results depend on the processing

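With 2 pools per genotype, the arrays limit every result. The members' median log2 fold change of 0.70 was 0.83 after median centring, which moved the median of all genes from -0.02 to 0.12. Relative to all genes it was 0.71 both ways. It was 0.81 with probe sets free of the suffixes _x_at and _s_at, an alternative chosen after the data were seen. Leaving out 1 array gave medians of 0.68 to 0.72, 40 to 42 positive members, 35 to 40 separated upward, 11 to 25 members with an unadjusted p under 0.05 (11 and 12 without Cxcr7-/- replicate 2 and 1) and 0 to 673 probe sets past the adjusted threshold (8 without Cxcr7-/- replicate 2, 673 without control replicate 1). With fewer pools to compare, the count separated upward can only stay at 34 or rise, so its range is no check on that result. The share of all genes separated upward with 1 array left out was not computed. The replicate numbers are tied to no litter or day by a label, and same-numbered pools deviated from their group means with a correlation of -0.26. With the number as a replicate block, 21 members were higher at an unadjusted p under 0.05, against 24 without it, and 0 passed the adjusted threshold. The shares of all genes tested were 2.74% with the block and 3.95% without it. No pseudocount, a pseudocount of 88, no filter or one at the 75th percentile, quantile normalization, no intensity trend and the mean of a gene's probe sets left 40 to 44 positive, 32 to 35 separated upward and 21 to 27 at an unadjusted p under 0.05. After median centring these were 44, 35 and 29, with 6.32% of all genes tested higher at an unadjusted p under 0.05. That share was 3.23% to 4.60% over the settings named before it and 3.95% as reported. The shares of all genes positive or separated upward after median centring were not computed. Espl1 was at 0.031 with quantile normalization. After median centring Cdca8 was at 0.10, Espl1 at 0.083, Cenpf at 0.11 and Kif22 at 0.11. With the mean of all probe sets Cdca8 was at 0.30, Cenpf at 0.25, Kif22 at 0.91 and Smc4 at 0.067, and with sets free of the suffixes Cdca8 was at 0.63 and Kif22 at 1.45. With 1 array left out, Cdca8 ranged from -0.23 to 0.15, Cenpf from -0.40 to 0.35, Espl1 from -0.26 to 0.15, Kif22 from -0.46 to 0.40, Smc4 from -1.49 to 0.99 and Mki67 from -0.48 to 0.56. Under the same settings Cks2 ranged from -0.0044 to 0.71, Kif15 from -0.021 to 0.47, Incenp from -0.0056 to 0.39 and Kif18b from -0.014 to 0.37. The causes were not tested.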

Other observations

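Among G1 regulators, which lie outside the mitotic genes, single genes stood apart although the list did not. Cdkn1c, which encodes the CDK inhibitor p57, read 1208 and 2073 in Cxcr7-/- pools and 3070.1 and 3471 in control pools, a log2 fold change of -1.03 ± 0.31. E2f8, an atypical E2F that represses cell cycle genes, read 371 and 658 against 943 and 944 in controls (-0.90 ± 0.34). In both genes the 2 genotypes did not overlap and Cxcr7-/- replicate 1 read lowest. Rbl1 read 1908 and 1779 against 1084 and 806 in controls (0.96 ± 0.27). Adjusted p in limma over all probe sets was 0.413, 0.459 and 0.406 for the 3 genes, which were named for their small unadjusted p, so none passed.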
